A study of Homo sapiens with 12 samples.

Results

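The early growth response (EGR) genes and the NGFI-A binding (NAB) genes are described here as a family of 6 genes, EGR1, EGR2, EGR3, EGR4, NAB1 and NAB2, out of 58051 genes counted in HCT116, a human colon carcinoma cell line. The members were chosen by name and matched by Ensembl identifier, with earlier results of these data known. The rule itself uses no measured value. All 6 passed the filter on low counts, and they were tested among 27915 genes. The study transfected HCT116 cells, with Oligofectamine, with an siRNA (double-stranded RNA that directs the cell to destroy transcripts it pairs with) against PFDN2 (siPFDN2) or PFDN5 (siPFDN5), or with a control siRNA (siControl). Both genes encode parts of prefoldin, a complex that hands unfolded actin and tubulin to a chaperonin. In all groups the siRNA was added 24 h before serum was withdrawn, and serum was withheld for 48 h. The cells were then taken without serum (before serum) or 90 min after serum was given back (after serum). This gave 6 groups of 2 RNA-seq libraries, called replicate 1 and replicate 2. The labels do not say whether the 2 libraries of a group came from separate cultures, so p-values measure the spread between these libraries, which may be technical.

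EGR proteins are transcription factors with zinc fingers that bind GC-rich sites. Their genes are immediate-early genes: growth factors in serum activate the MAP kinase pathway, and serum response factor (SRF), bound with its partners at CArG boxes, then switches them on within minutes. NAB1 and NAB2 bind EGR1, EGR2 and EGR3 and act mainly as corepressors, in part through the NuRD chromatin complex, and NAB2 is itself known as a target of EGR proteins. EGR4 lacks the site that NAB proteins recognise.

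Promoter sequences were taken from RefSeq (build GRCh38.p14), where 5 of the 6 members had at least 1 window of 300 bases around an annotated start. Stretches before the start are printed for 3 members picked as examples, EGR1 and EGR2 with CArG boxes and NAB1 with EGR sites. EGR2 and NAB1 had 3 windows each, and the stretch is from the window with most CArG boxes, or else the first by position. Capitals mark CArG boxes and CRE cores in EGR1 and EGR2, and overlapping EGR sites in NAB1. All are written 5′ to 3′ on the strand of the gene.
EGR1 (chr5:138465359-138465458, plus strand): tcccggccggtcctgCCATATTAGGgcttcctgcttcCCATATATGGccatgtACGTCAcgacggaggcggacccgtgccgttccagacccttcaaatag
EGR2 (chr10:62816387-62816486, minus strand): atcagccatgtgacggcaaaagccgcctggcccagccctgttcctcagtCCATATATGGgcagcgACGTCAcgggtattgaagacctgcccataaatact
NAB1 (chr2:190648835-190648894, plus strand): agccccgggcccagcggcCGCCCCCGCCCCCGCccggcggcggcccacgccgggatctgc

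The motifs sought on both strands of each window were the CArG box, by name, the EGR site GCGNGGGCG and the CRE core TGACGT (the core of the cAMP response element), which shows as ACGTCA on the other strand. CArG boxes were in 1.29% of all 35116 promoter windows of this length, the EGR site in 9.43% and the CRE core in 7.98%. EGR1 had 2 CArG boxes, 1 EGR site and 2 CRE cores in its window. EGR2 had 1 CArG box and 1 CRE core in the window shown, and its CArG box has the same letters as the second one of EGR1. Its other windows had no CArG box. NAB1 had 3 EGR sites in the window shown, 4 and 0 in its other windows, and no CArG box in any. NAB2 had 1 EGR site, and EGR4 had 2 CRE cores. A match is a run of letters, not a bound site.

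Whole gene bodies received between 59784425 and 136504590 fragment counts per library, and the spread between libraries of a group, as a biological coefficient of variation, had a median of 17.4% over all genes. The targeted genes were checked first. PFDN2 was at 70.9% of siControl under siPFDN2 before serum and at 50.8% after it. PFDN5 was at 58.4% of siControl under siPFDN5 before serum but at 95.9% in the 2 libraries given the label siPFDN5 after serum, so that pair is called by its label throughout, and every serum response under siPFDN5 rests on them. In siPFDN5 before serum PFDN2 was at 189% of siControl, and in the pair labelled siPFDN5 after serum it was at 145%. The library siPFDN2 before serum replicate 2 stood apart from the other libraries. Its deviation from the mean of the libraries followed the GC content of genes (Spearman's correlation 0.815 across genes, which are not independent), and its group had a replicate SD of 0.68 on the log2 scale against 0.12 to 0.30 in the other groups. Because 1 spread was fitted over all groups, this library also entered the tests of the other groups, and tests are given without it where the call changes. Epithelial markers fitted the labelled cell type: 8 of 8 were counted, with a summed exon level of 2497 to 3669 CPM (counts as a share of the library's scaled total). Leukocyte markers summed to at most 0.941 CPM and endothelial markers to at most 1.58 CPM. Fibroblast markers summed to between 4.91 and 19.9 CPM, with COL1A2, DCN or LUM at 0 counts in some groups. In these marker sums a gene that failed the filter on low exon counts was entered as 0.

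The 4 EGR genes rose strongly after serum in control cells, from low levels for EGR2, EGR3 and EGR4 and from a higher level for EGR1, while the 2 NAB genes were expressed before serum and changed little. Per kilobase of exon, which allows genes to be compared, the siControl level before serum was 17.7 ± 1.22 CPM for NAB2, 12.8 ± 0.947 for NAB1, 8.10 ± 2.66 for EGR1, 0.275 ± 0.0506 for EGR3, 0.249 ± 0.00134 for EGR2 and 0.0413 ± 0.00324 for EGR4 (SD, n = 2). After serum the same level was 44.4 ± 17.1 CPM per kb for EGR1, 22.3 ± 3.37 for EGR3, 22.2 ± 3.18 for NAB2, 14.3 ± 3.45 for EGR2, 13.1 ± 1.85 for NAB1 and 0.537 ± 0.0466 for EGR4 (SD, n = 2). EGR1 thus passed both NAB genes, and EGR3 came to a mean close to that of NAB2. EGR4 remained the lowest member.

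**Figure D1:**
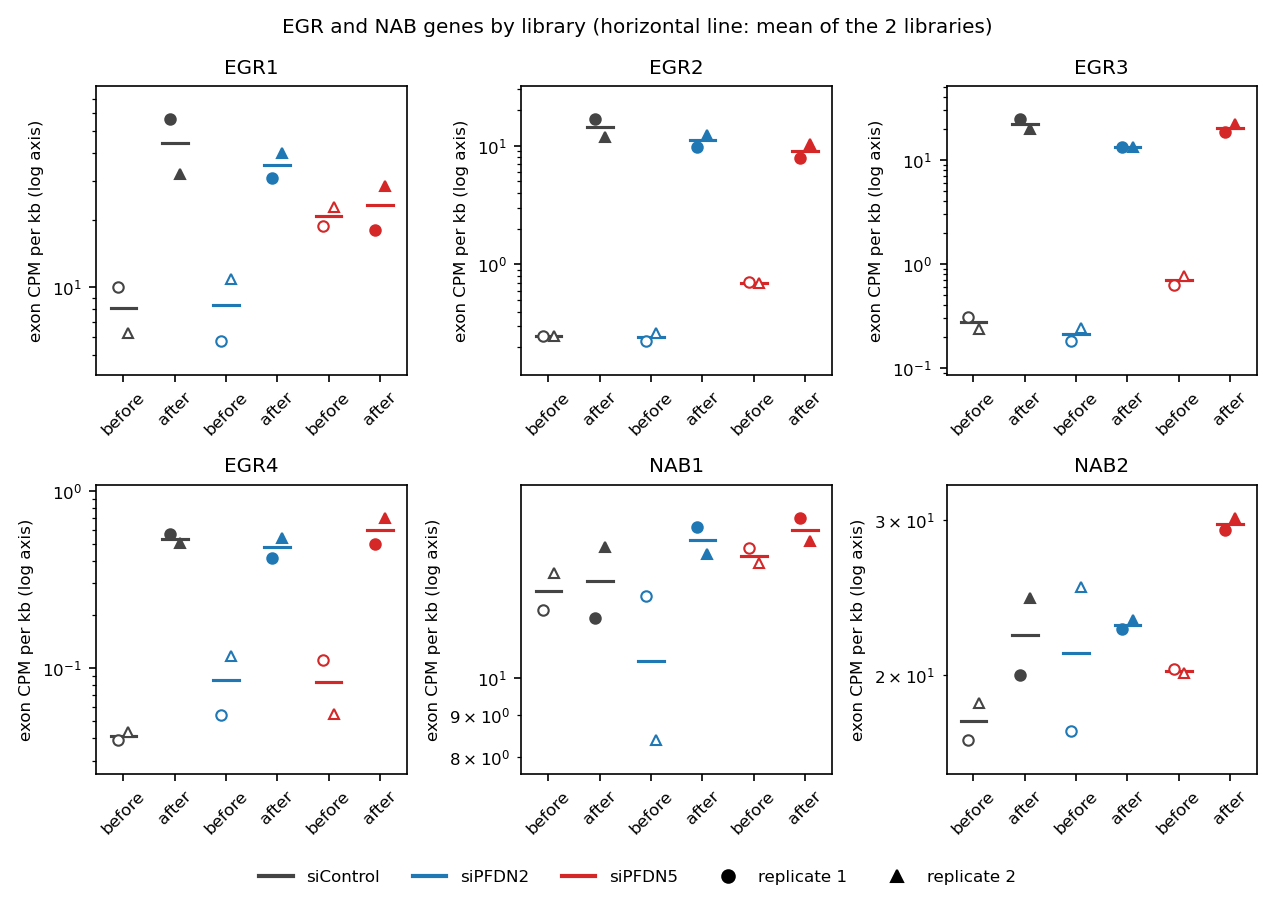
Level of each member per kilobase of exon (CPM per kb, log axis, a separate scale per gene) in the 12 libraries. Colours give the siRNA, open symbols are libraries before serum and filled symbols after it, and horizontal lines are the means of 2 libraries. EGR2, EGR3 and EGR4 are higher after serum in every pair of groups, EGR1 overlaps before and after in the libraries of siPFDN5, and the NAB genes move within a narrow range.

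In siControl, 4 of the 6 members rose after serum and none fell by edgeR's quasi-likelihood test (Benjamini-Hochberg adjusted p under 0.05 over all tested genes). Over all genes tested, 2.87% were called in that comparison, 2.47% higher and 0.394% lower. Under siPFDN2, 4 members rose and none fell, where 3.26% of all genes were called, 2.06% higher and 1.2% lower. In the comparison of libraries labelled siPFDN5, 4 members rose and none fell, where 12.2% of all genes were called, 5.72% higher and 6.48% lower. The members called there included NAB2 and left out EGR1. The median log2 fold change of the 6 members was 2.86 in siControl, 2.22 under siPFDN2 and 1.75 under siPFDN5, and that of all tested genes was 0.01, -0.02 and -0.03.

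**Figure D2:**
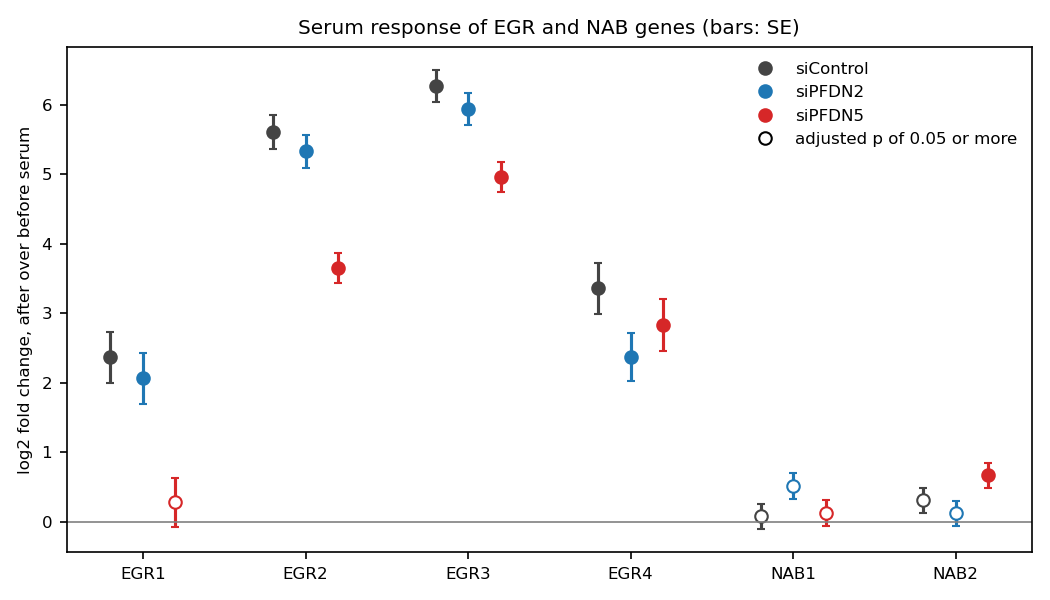
Serum response of each member as a log2 fold change (after over before serum) under each siRNA, with bars of 1 SE from edgeR's quasi-likelihood fit and open symbols where the adjusted p was 0.05 or more. EGR1 is at 2.36 in siControl and at 0.28 in the libraries labelled siPFDN5, and EGR3 has the highest value under each siRNA.

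EGR1, the founding member of the family and a regulator of growth and of wound and vascular genes, lies at chr5:138465490-138469315 on the plus strand (GRCh38, GENCODE release 29), has 2 exons and overlaps no other gene. Its gene-body level in siControl was 26.4 and 16.5 CPM before serum (replicates 1 and 2) and 138 and 83.3 CPM after it. Both libraries after serum stood above both before, and the means differed 5.15-fold. Under siPFDN2 it went from 15.4 and 28.4 CPM to 79.0 and 104 CPM, a 4.18-fold difference with no overlap. Under siPFDN5 it was at 46.8 and 57.9 CPM before serum, then at 49.7 and 77.5 CPM in the pair labelled siPFDN5 after serum, so that the 2 groups overlapped and the means differed 1.22-fold. The start was high and the end was low there: before serum both siPFDN5 libraries stood above all libraries of siControl and siPFDN2, and after serum both stood below all of theirs.

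The log2 fold change of EGR1 after serum was 2.36 (SE 0.37, adjusted p = 0.00449, edgeR) in siControl, 2.06 (SE 0.36, adjusted p = 0.0115) under siPFDN2 and 0.28 (SE 0.35, adjusted p = 0.623) in the libraries labelled siPFDN5. The first call was lost without siControl before serum replicate 2 (log2 fold change 2.06, adjusted p = 0.0821) and without siControl after serum replicate 1 (1.96, adjusted p = 0.0596), in edgeR fits. The second was lost without siPFDN2 before serum replicate 2 (2.57, adjusted p = 0.0861) and without siPFDN2 after serum replicate 2 (1.85, adjusted p = 0.0915). Over 29 alternatives the first call held in 25 (adjusted p from 6.55e-28 to 0.17) and the second in 24 (6.95e-21 to 0.306), and the sign was the same in all 29 for both. The order of the 6 groups by mean was siControl after serum, siPFDN2 after serum, the group labelled siPFDN5 after serum, siPFDN5 before serum, siPFDN2 before serum and siControl before serum. In that order siControl and siPFDN2 after serum overlapped, the 2 siPFDN5 groups overlapped, and siPFDN2 and siControl before serum overlapped, while the other neighbours did not.

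EGR2, known for its role in myelination and in the hindbrain, spans chr10:62811996-62919900 on the minus strand, with 10 merged exons of 3689 bases in a body of 107905 bases, because a few transcripts start far upstream. In siControl it was at 0.851 and 0.833 CPM before serum, then at 48.2 and 36.1 CPM after it, a 50.01-fold difference of means. Under siPFDN2 the values were 0.772 and 0.861 CPM before and 29.6 and 37.7 CPM after, a 41.2-fold difference. Under siPFDN5 they were 2.31 and 2.30 CPM before serum and 25.1 and 33.0 CPM in the pair labelled siPFDN5 after it, a 12.6-fold difference. No pair of groups before and after serum overlapped. The start of EGR2 in siPFDN5 was above every other library before serum, and its libraries after serum overlapped with those of siPFDN2 but stayed below those of siControl.

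The serum response of EGR2 on the log2 scale was 5.61 (SE 0.24, adjusted p = 2.27e-07, edgeR) in siControl, 5.33 (SE 0.24, adjusted p = 3.53e-07) under siPFDN2 and 3.65 (SE 0.22, adjusted p = 4.31e-06) in the libraries labelled siPFDN5. It was called in 29 of 29 alternatives under each siRNA. Ranked by log2 fold change among all 27915 tested genes, EGR2 was number 12 from the top in siControl, 13 under siPFDN2 and 31 under siPFDN5. By group mean the order was siControl, siPFDN2 and the group labelled siPFDN5 after serum, in which neighbours overlapped, then siPFDN5 before serum, then siControl and siPFDN2 before serum, which overlapped with each other.

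EGR3, a target of calcium and growth factor signalling in lymphocytes, muscle spindles and neurons, lies at chr8:22687659-22693302 on the minus strand. In siControl its level was 1.24 and 0.955 CPM before serum and 92.7 and 79.0 CPM after it, a 78.3-fold difference of means. Under siPFDN2 it was at 0.719 and 0.949 CPM before and at 52.8 and 52.8 CPM after, a 63.3-fold difference. Under siPFDN5 it was at 2.42 and 2.99 CPM before serum, then at 77.9 and 92.3 CPM in the pair labelled siPFDN5 after it, a 31.5-fold difference. Here the end did not set siPFDN5 apart from siControl: the end levels overlapped, and the rise in CPM was 84.8 in siControl and 82.4 in the libraries labelled siPFDN5, while the start was 2.47 times that of siControl. For EGR2 the rise in CPM was 41.3 and 26.8, and for EGR1 it was 89.2 and 11.3, in the same 2 comparisons.

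The log2 serum response of EGR3 was 6.26 (SE 0.23, adjusted p = 8.5e-08, edgeR) in siControl, 5.94 (SE 0.23, adjusted p = 1.06e-07) under siPFDN2 and 4.96 (SE 0.22, adjusted p = 3.55e-07) in the libraries labelled siPFDN5, and it was called in 29 of 29 alternatives each time. EGR3 ranked 6, 6 and 13 among all tested genes. In the order of its groups, siControl and the group labelled siPFDN5 after serum overlapped, and siPFDN2 after serum lay below both. Then came siPFDN5, siControl and siPFDN2 before serum, none of which overlapped with the next by gene-body counts, though by exon counts the last 2 overlapped. On the opposite strand EGR3 shares 164 exon bases with AC055854.1, and the counting used no strand. Counts over exons of AC055854.1 were 5 to 26 per library before serum and 125 to 510 after it, so the 2 genes' reads cannot be told apart in the shared stretch.

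EGR4, the least described member, lies at chr2:73290929-73293705 on the minus strand and was hardly counted before serum. In siControl it had counts of 7 and 9 before serum against 90 and 133 with it, or 0.0754 and 0.0843 CPM against 1.07 and 0.988 CPM. Under siPFDN2 it was at 0.106 and 0.222 CPM (10 and 25 counts) before and at 0.845 and 1.05 CPM after. Under siPFDN5 it was at 0.207 and 0.104 CPM (13 and 7 counts) before serum, then at 1.04 and 1.43 CPM in the pair labelled siPFDN5 after it. Before and after never overlapped within an siRNA, and the fold between means was 12.9, 5.79 and 7.94. The 3 groups after serum overlapped as neighbours in their order, as did siPFDN2 and siPFDN5 before serum, while siControl before serum lay below both.

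The log2 serum response of EGR4 was 3.36 (SE 0.37, adjusted p = 0.000382, edgeR) in siControl, 2.37 (SE 0.35, adjusted p = 0.0038) under siPFDN2 and 2.83 (SE 0.37, adjusted p = 0.00148) in the libraries labelled siPFDN5. With so few counts before serum these folds depend on single fragments more than those of the other members. The siPFDN2 call was lost when only the libraries compared were fitted (adjusted p = 0.163 over gene bodies, 0.291 over exons, edgeR), and it held in 26 of 28 alternatives, with adjusted p from 3.27e-09 to 0.291.

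NAB1, which spans chr2:190646746-190692766 on the plus strand with 13 merged exons, was at 52.6 and 57.9 CPM before serum and 53.9 and 62.7 CPM after it in siControl. Under siPFDN2 it was at 54.8 and 36.0 CPM before and at 66.9 and 62.3 CPM after. Under siPFDN5 it was at 62.9 and 59.8 CPM before serum, then at 69.1 and 65.0 CPM in the pair labelled siPFDN5 after it. The low value of 36.0 CPM came from the library that stands apart, and every neighbouring pair in the order of the 6 groups overlapped. After serum the means were 1.06, 1.42 and 1.09 times the start in siControl, siPFDN2 and the libraries labelled siPFDN5. Libraries before and after serum overlapped in siControl and not in the other comparisons. NAB1 was called in no serum response by edgeR: log2 fold changes were 0.08 (SE 0.19), 0.51 (SE 0.19) and 0.13 (SE 0.19), with adjusted p of 0.951, 0.1249 and 0.677. Without siPFDN2 before serum replicate 2 the value under siPFDN2 was 0.24, and without siPFDN2 before serum replicate 1 NAB1 was called there (0.85, adjusted p = 2.62e-05, edgeR), in a fit that called 48.6% of all genes, with adjusted p from 2.62e-05 to 0.571 over all alternatives.

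NAB1 overlaps the antisense gene AC006460.1 over 15823 bases of its body, 186 of them exonic in both, and the counts carry no strand. In 11 libraries the NAB1 transcript estimates gave NAB1-201, a protein-coding transcript of 4358 bases, 65.1% to 76.3% of the gene's total. In siPFDN2 before serum replicate 2 that share was 37.2%, and NAB1-202 had 44.4% against 8.90% to 13.3% elsewhere. The library that stands apart by GC content was thus also apart in the transcript makeup of NAB1.

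NAB2, at chr12:57088894-57095476 on the plus strand with 7 merged exons, is the NAB gene usually described as inducible. In siControl it was at 41.8 and 45.9 CPM before serum, then at 47.7 and 61.0 CPM after it, a 1.24-fold difference. Under siPFDN2 the values were 43.0 and 61.1 CPM before and 56.0 and 57.6 CPM after, and the groups overlapped. Under siPFDN5 they were 48.4 and 48.5 CPM before serum and 76.0 and 78.3 CPM in the pair labelled siPFDN5 after it, a 1.59-fold difference. These last 2 libraries were the highest of all 12, with no overlap with siPFDN2 after serum, the next group. The other neighbours in the order overlapped, except siPFDN5 and siControl before serum.

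The log2 serum response of NAB2 was 0.31 (SE 0.18, adjusted p = 0.567, edgeR) in siControl, 0.12 (SE 0.18, adjusted p = 0.666) under siPFDN2 and 0.67 (SE 0.18, adjusted p = 0.0385) in the libraries labelled siPFDN5. The call under siPFDN5 was close to the threshold and held in 17 of 29 alternatives, with a log2 fold change between 0.52 and 0.72. By edgeR it was lost when either library of siPFDN5 before serum, siControl before serum, siPFDN2 after serum or siPFDN5 after serum was left out (adjusted p between 0.0633 and 0.219), and when exons were counted (0.55, adjusted p = 0.104). Over all alternatives the adjusted p ran from 1.71e-06 to 0.219. Under siPFDN2, NAB2 was called in 4 of 29 alternatives by edgeR: with the GC trend of each library removed (0.64, adjusted p = 0.00966), with the replicate block as well (0.64, adjusted p = 0.0193), over exons with the GC trend removed (0.62, adjusted p = 0.00618) and over exons without siPFDN2 before serum replicate 2 (0.40, adjusted p = 0.0319). The adjusted p there ran from 0.00618 to 0.963. In siControl it was called in 1, over exons without that library (0.32, adjusted p = 0.0179, edgeR), with a range of 0.0179 to 1. The NAB2 response in the libraries labelled siPFDN5 was larger than that under siPFDN2 by 0.55 (SE 0.26, adjusted p = 0.281, edgeR), a difference that was not called. NAB2 ends in a stretch of 69 bases shared with STAT6 on the opposite strand. As a share of the exon total without TMM scaling, STAT6 was at 50.2 and 49.9 CPM in siPFDN5 before serum. In the labelled pair it was at 46.7 and 51.5 CPM on that scale. The NAB2 values are TMM-scaled, so these STAT6 values cannot be set beside them and do not show that STAT6 was unchanged.

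Before serum, EGR1, EGR2 and EGR3 were each higher in siPFDN5 than in siControl, but none passed the adjusted test. For all 6 members both siPFDN5 libraries stood above both siControl libraries. The share of all genes that separate in this way was not counted. Of the 6 members, 0 were called by edgeR, where 0.00716% of all genes were. An unadjusted p under 0.05 was reached by 3 members and 3432 genes, and DESeq2's Wald test called 3 members. The means were 2.44 times siControl for EGR1, 2.73 times for EGR2 and 2.47 times for EGR3. Log2 fold changes were 1.28 (SE 0.36, adjusted p = 0.234, edgeR), 1.43 (SE 0.22, adjusted p = 0.0884) and 1.29 (SE 0.20, adjusted p = 0.0884). EGR4 was at 0.78 (SE 0.42), NAB1 at 0.15 (SE 0.19) and NAB2 at 0.14 (SE 0.18), with means 1.95, 1.11 and 1.11 times siControl. In bulk RNA a change in every cell and a change in the share of responding cells cannot be told apart.

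Whether EGR1, EGR2 and EGR3 passed before serum changed with the setting. When siPFDN2 before serum replicate 2 was left out, EGR2 (1.42, adjusted p = 0.0132, edgeR) and EGR3 (1.29, adjusted p = 0.00243) were called and EGR1 was not (1.28, adjusted p = 0.1251). They were also called without siPFDN2 before serum replicate 1 (adjusted p = 0.0132 and 0.00243), without siControl after serum replicate 1 (0.0441 for both) and without siControl after serum replicate 2 (0.0482 for both). Of all genes, these 4 fits called 6.96%, 6.74%, 0.652% and 0.487% in that comparison. EGR2 and EGR3 passed in 12 of 29 alternatives each and EGR1 in 2, with the same sign in all 29. Adjusted p ran from 3.01e-06 to 1 for EGR2, from 7.78e-06 to 0.954 for EGR3 and from 2.07e-07 to 1 for EGR1.

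Against siPFDN2 before serum, 2 members were called higher in siPFDN5 and none lower by edgeR, where 0.0788% of all genes were called, 0.0681% higher and 0.0107% lower. These were EGR2 at 1.47 (SE 0.22, adjusted p = 0.049) and EGR3 at 1.67 (SE 0.21, adjusted p = 0.0207), and EGR1 was at 1.26 (SE 0.36, adjusted p = 0.0703). The EGR2 call held in 12 of 29 alternatives and the EGR3 call in 20. Leaving out 1 library of siPFDN5 before serum, siPFDN2 after serum or siPFDN5 after serum ended both calls, and leaving out either library of siControl before serum ended that of EGR2 only (adjusted p between 0.0611 and 0.334 over these fits). Without siPFDN2 before serum replicate 2, EGR2 was at 1.54 (adjusted p = 0.0321) and EGR3 at 1.88 (adjusted p = 0.00265), where 3.16% of all genes were called. Without replicate 1 of that group, which leaves the library that stands apart as its only one, NAB1 (0.77, adjusted p = 7.06e-05) and NAB2 (-0.33, adjusted p = 0.0403) were called too, in a fit that called 47.9% of all genes. NAB2 was called in the opposite direction over exons with the GC trend of each library removed (0.45, adjusted p = 0.0400, edgeR), where 7.11% of all genes were called. Over all alternatives adjusted p ran from 1.22e-06 to 0.617 for EGR2, from 2.25e-09 to 0.617 for EGR3, from 7.06e-05 to 0.625 for NAB1 and from 0.0400 to 0.924 for NAB2.

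Between siPFDN2 and siControl before serum 0 members and 0% of all genes were called by edgeR. An unadjusted p under 0.05 was reached by 1 member (EGR4) and 3156 genes, and DESeq2 called 0 members. EGR1 and EGR2 differed there by 0.03 (SE 0.35) and -0.04 (SE 0.22) on the log2 scale. In a fit that left out siPFDN2 before serum replicate 1, EGR4 (1.24, adjusted p = 0.0189, edgeR), NAB1 (-0.63, adjusted p = 0.000441) and NAB2 (0.47, adjusted p = 0.00652) were called, as were 41.8% of all genes. In no other of the alternatives run was a member called in that comparison, and their adjusted p reached 0.976, 0.999 and 0.994.

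Against siControl after serum, 0 members were called in the libraries labelled siPFDN5 by edgeR, where 0.00358% of all genes were. An unadjusted p under 0.05 was reached by 3 members and 6032 genes, and DESeq2 called 0 members. EGR1 was at -0.80 (SE 0.35, adjusted p = 0.219, edgeR), EGR2 at -0.53 (SE 0.19, adjusted p = 0.15), EGR3 at -0.01 (SE 0.18), EGR4 at 0.26 (SE 0.31), NAB1 at 0.20 (SE 0.19) and NAB2 at 0.51 (SE 0.18, adjusted p = 0.147). For EGR1, EGR2, NAB1 and NAB2 the libraries of the 2 groups did not overlap, and the share of all genes without overlap was not counted. Without siPFDN2 before serum replicate 2, EGR2 (-0.53, adjusted p = 0.0497, edgeR) and NAB2 (0.51, adjusted p = 0.00371) passed, and without replicate 1 of that group NAB2 did (adjusted p = 0.00373). These 2 fits called 23.9% and 23.6% of all genes in that comparison. Over the alternatives adjusted p ran from 0.0305 to 0.775 for EGR2 and from 0.00153 to 0.741 for NAB2.

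Under siPFDN2 after serum, EGR3 was the member farthest from siControl, at 52.8 and 52.8 CPM against 92.7 and 79.0 CPM (log2 fold change -0.70, SE 0.18, adjusted p = 0.772, edgeR). None of the 6 members and 0% of all genes were called there. An unadjusted p under 0.05 was reached by 1 member and 1747 genes, and DESeq2 called 0 members. When siPFDN2 before serum replicate 2 was dropped, or without replicate 1 of that group, EGR3 passed (-0.70, adjusted p = 0.0332 by edgeR in both fits, with a range of 0.00604 to 1 over the alternatives), where 0.568% and 0.593% of all genes were called. Between the libraries labelled siPFDN5 and siPFDN2 after serum 0 members were called by edgeR, where 0.0179% of all genes were (0.0143% higher and 0.00358% lower). An unadjusted p under 0.05 was reached by 2 members and 2212 genes, and DESeq2 called 0 members. EGR3 was higher by 0.69 (SE 0.18, adjusted p = 0.388) and NAB2 by 0.44 (SE 0.18, adjusted p = 0.578) in the libraries labelled siPFDN5. Without siPFDN2 before serum replicate 2 both passed (adjusted p = 0.00843 and 0.0284, edgeR), as they did without replicate 1 (0.00842 and 0.0288), and 4.22% and 4.15% of all genes were called in these fits. Over the alternatives adjusted p ran from 3.49e-06 to 1 and from 2.8e-05 to 1.

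The difference between serum responses was tested directly. Between the libraries labelled siPFDN5 and siControl it was -2.08 (SE 0.50) for EGR1, -1.96 (SE 0.29) for EGR2 and -1.30 (SE 0.27) for EGR3 on the log2 scale, each with an adjusted p of 0.096 by edgeR. So 0 members were called, as were 0% of all genes, though 3 members and 5847 genes had an unadjusted p under 0.05, and DESeq2 called 3 members. EGR4 was at -0.52 (SE 0.46), NAB1 at 0.05 (SE 0.26) and NAB2 at 0.36 (SE 0.26). The value had the same sign in all 29 alternatives for EGR1, EGR2 and EGR3, between -2.45 and -1.67, -2.23 and -1.73, and -1.58 and -1.11. It passed in 4, 10 and 10 of them.

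Without siPFDN2 before serum replicate 2 the differences for EGR2 (-1.95, adjusted p = 0.00675, edgeR) and EGR3 (-1.30, adjusted p = 0.00575) passed, and that for EGR1 did not (-2.07, adjusted p = 0.0536), where 21.8% of all genes passed. Without replicate 1 of the same group EGR2 and EGR3 passed as well (adjusted p = 0.00691 and 0.00574), with 21.5% of all genes. Without siControl after serum replicate 2 all 3 passed (EGR1 -2.32, adjusted p = 0.0266, EGR2 -2.07, adjusted p = 0.00377, and EGR3 -1.33, adjusted p = 0.0243), as did 10.9% of all genes. Over all alternatives adjusted p ran from 7.27e-11 to 0.361 for EGR1, from 2.64e-07 to 0.344 for EGR2 and from 0.00108 to 0.344 for EGR3.

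**Figure D3:**
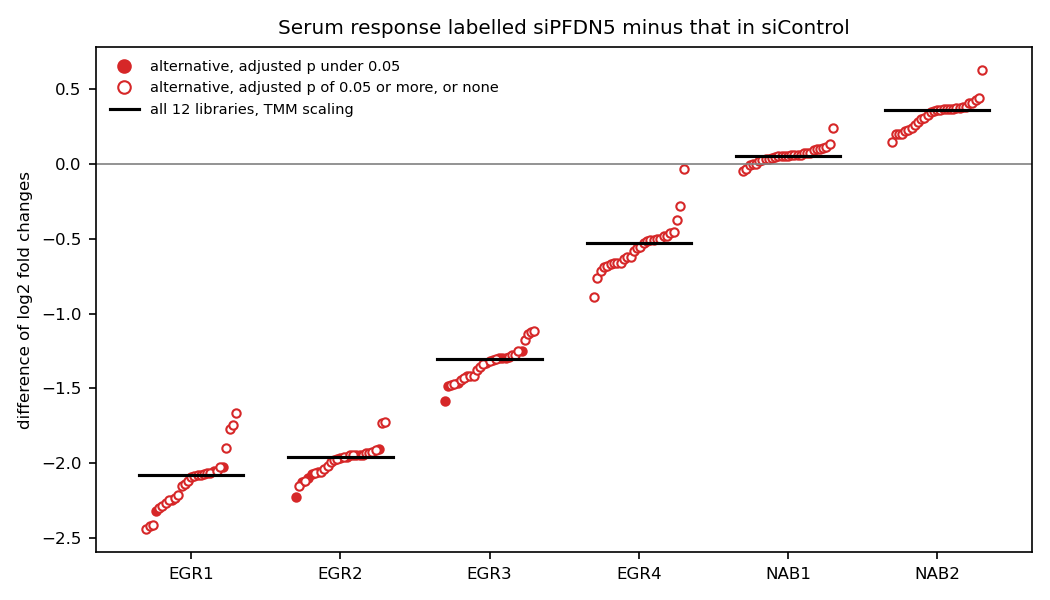
Difference of the log2 serum response in the libraries labelled siPFDN5 from that in siControl, for each member under each alternative processing (points, sorted by value, filled where the adjusted p was under 0.05) and with all 12 libraries and TMM scaling (black line). EGR1, EGR2 and EGR3 lie below 0 under every alternative, at -2.08, -1.96 and -1.30 with all libraries, and most points are open.

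For siPFDN2 against siControl the same difference was -0.30 (SE 0.50) for EGR1, -0.28 (SE 0.30) for EGR2 and -0.33 (SE 0.29) for EGR3, -0.99 (SE 0.48) for EGR4, 0.43 (SE 0.26) for NAB1 and -0.18 (SE 0.26) for NAB2. By edgeR 0 members and 0% of all genes were called, 0 members and 1841 genes had an unadjusted p under 0.05, and DESeq2 called 0 members. With siPFDN2 before serum replicate 1 removed, EGR4 (-1.34, adjusted p = 0.0297, edgeR) and NAB1 (0.78, adjusted p = 0.000697) passed, in a fit that called 37.7% of all genes, and over the alternatives their adjusted p reached 0.981. Between siPFDN5 and siPFDN2 the difference was -1.78 (SE 0.50) for EGR1, -1.68 (SE 0.29) for EGR2 and -0.98 (SE 0.27) for EGR3, each at an adjusted p of 0.233 (edgeR). None of the members and 0% of all genes were called, 3 members and 5122 genes had an unadjusted p under 0.05, and DESeq2 called 2 members. Without siPFDN2 before serum replicate 1, EGR2 (-1.61, adjusted p = 0.0036, edgeR), EGR3 (-0.80, adjusted p = 0.0142), NAB1 (-0.72, adjusted p = 0.00127) and NAB2 (0.77, adjusted p = 0.00148) passed, as did 39.8% of all genes. Over the alternatives adjusted p reached 0.572, 0.572, 0.937 and 0.909. The siPFDN2 and siPFDN5 differences from siControl share the 4 control libraries.

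Counts that fell outside annotated exons were taken as gene-body counts minus exon counts. The measure holds unspliced RNA, any unannotated transcript and, as no strand was read, fragments of overlapping genes. EGR1 rose in its exons after serum and not outside them. In siControl its level outside exons was 0.958 and 0.656 CPM before serum and 0.620 and 0.342 CPM after it, and the share of its counts outside exons went from 3.63% and 3.97% to 0.449% and 0.410%. The share before serum was lower in siPFDN5, at 1.80% and 1.64%. EGR2 was at 0.108 and 0.0843 CPM outside exons in siControl before serum and at 0.322 and 0.252 after it, which is 9 to 34 counts. In siPFDN5 before serum EGR2 was already at 0.255 and 0.267 CPM outside exons, within the range of siControl after serum.

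NAB1 has the highest level outside exons of the members. In siControl it was at 4.61 and 4.55 CPM before serum, then at 9.11 and 4.92 CPM after it. Under siPFDN2 it was at 4.31 and 3.33 CPM before and 6.23 and 5.36 CPM after. Under siPFDN5 it was at 7.87 and 6.23 CPM before serum, then at 3.07 and 3.40 CPM in the pair labelled siPFDN5 after it. The level was higher after serum in the first 2 comparisons and lower in the third, with no overlap in any. Fragments of AC006460.1, which overlaps the NAB1 body over 15823 bases, can also fall outside NAB1 exons, and their part was not tested. NAB2 outside exons was at 0.571 and 0.403 CPM before serum and 1.09 and 0.713 CPM after it in siControl. In siPFDN5 it went from 0.573 and 0.563 CPM to 0.182 and 0.374 CPM, the latter in the pair labelled siPFDN5 after serum. Over 16023 genes the median share of counts outside exons was lowest in the same pair of libraries. It was 8.25% and 8.36% in the pair labelled siPFDN5 after serum, 16.8% and 15% in siPFDN5 before serum, 18.7% in siControl after serum replicate 1 and 11.2% to 14.96% in the other 7. Its part in the NAB values was not tested.

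**Figure D4:**
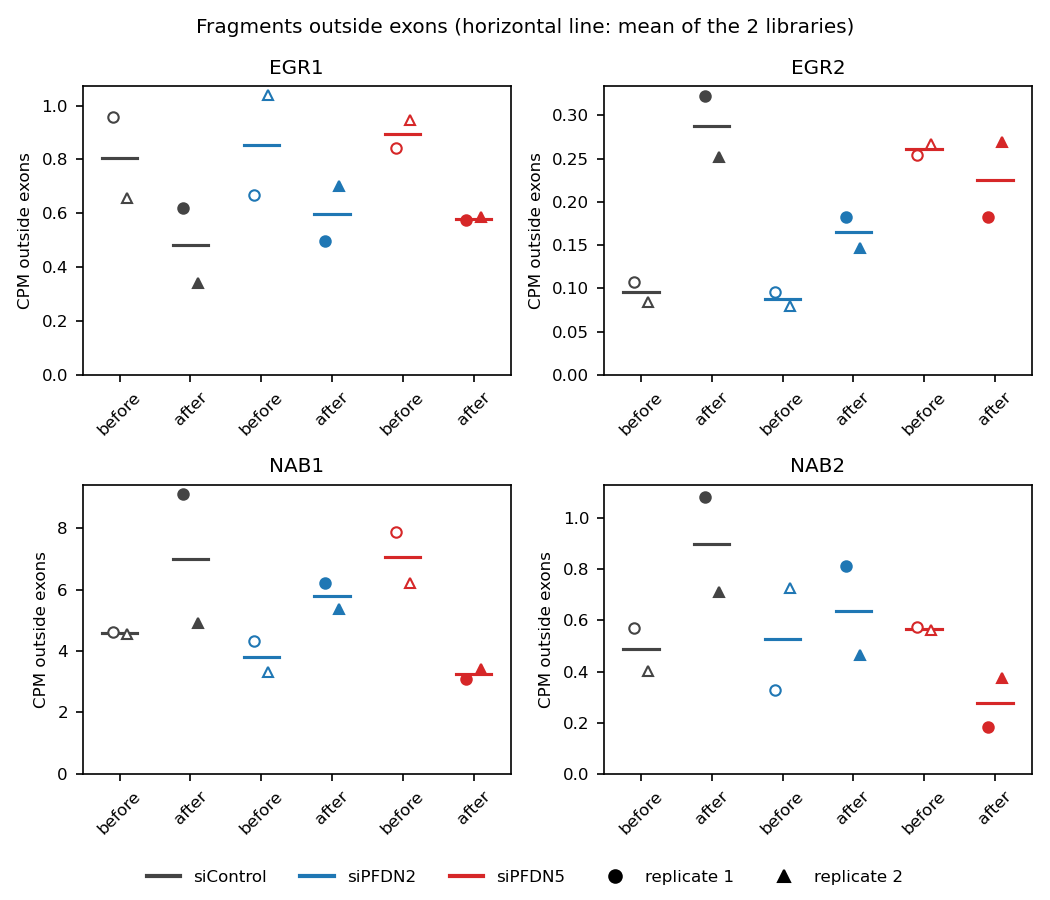
Level outside annotated exons (CPM) of EGR1, EGR2, NAB1 and NAB2 in the 12 libraries, with horizontal lines at the means of 2 libraries and open symbols before serum. NAB1 and NAB2 are higher after serum in siControl and lower after it in the libraries labelled siPFDN5, where NAB1 stands at 3.07 and 3.40 CPM.

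Across the 12 libraries the EGR genes moved together. Pearson's r of log2 CPM, given as a description over libraries that share serum state, was 0.993 between EGR2 and EGR3, 0.959 between EGR2 and EGR4 and 0.897 between EGR1 and EGR2. NAB2 had an r of 0.747 with EGR4, 0.656 with EGR3, 0.608 with EGR2 and 0.427 with EGR1, and NAB1 had one of 0.393 (EGR1) to 0.569 (EGR3) with the EGR genes. NAB1 and NAB2 had an r of 0.249 with each other. Among 12109 genes outside the family with a mean log2 CPM of at least 3, those closest to EGR1 were IRS2 (0.961), ZFP36 (0.955) and FOS (0.949), the last 2 immediate-early genes themselves. Closest to EGR2 were ING1 (0.993), KLF4 (0.991) and NR4A3 (0.991), and closest to EGR3 were ATF3 (0.994), NR4A3 (0.994) and CTGF (0.994). EGR4 was nearest to NR4A1 (0.984), FOSL2 (0.982) and LIF (0.982). NAB1 was nearest to AC006460.1 (0.988), which overlaps it and shares its reads, and then to a gene with no symbol (0.983) and LIN7C (0.982). NAB2 was nearest to C19orf33 (0.970), PLP2 (0.962) and TUBB2A (0.962).

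Genes known as EGR targets, a list of 24 with 23 tested, held 7 genes that rose after serum in siControl, 6 under siPFDN2 and 8 in the libraries labelled siPFDN5, and 0 that fell (edgeR, adjusted p under 0.05). Those are 30.4%, 26.1% and 34.8% of the list, where 2.47%, 2.06% and 5.72% of all genes rose. The median log2 fold change of the list was 0.18, 0.19 and 0.13, against 0.01, -0.02 and -0.03 over all tested genes. THBS1, which encodes the matrix protein thrombospondin 1, had the largest change: it went from 7.99 and 8.78 CPM to 465 and 437 CPM in siControl. In siPFDN5 it went from 9.22 and 8.99 CPM to 515 and 512 CPM in the pair labelled siPFDN5 after serum, a start and a rise close to those of siControl. ATF3, a stress-responsive transcription factor, went from 10.6 and 10.8 to 249 and 209 CPM in siControl. It went from 16.0 and 16.1 to 285 and 314 CPM in siPFDN5. Before serum ATF3 was the 1 target called higher in siPFDN5 than in siPFDN2 (1.04, SE 0.16, adjusted p = 0.049, edgeR). That is 4.35% of the list, where 0.0681% of all genes were called higher. The call was close to the threshold and was not followed over the alternatives.

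F3, which encodes tissue factor, went from 13.7 and 16.0 to 49.6 and 62.4 CPM in siControl and from 15.3 and 16.1 to 72.5 and 62.0 CPM in the siPFDN5 libraries. The difference of the serum response in the libraries labelled siPFDN5 from that in siControl was 0.07 (SE 0.19) for THBS1, -0.20 (SE 0.22) for ATF3 and 0.18 (SE 0.30) for F3. It was called for 0 of the 23 targets by edgeR, with 2 of them and 5847 of all genes at an unadjusted p under 0.05. Its median over the targets was 0.01 against -0.03 over all tested genes.

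**Figure D5:**
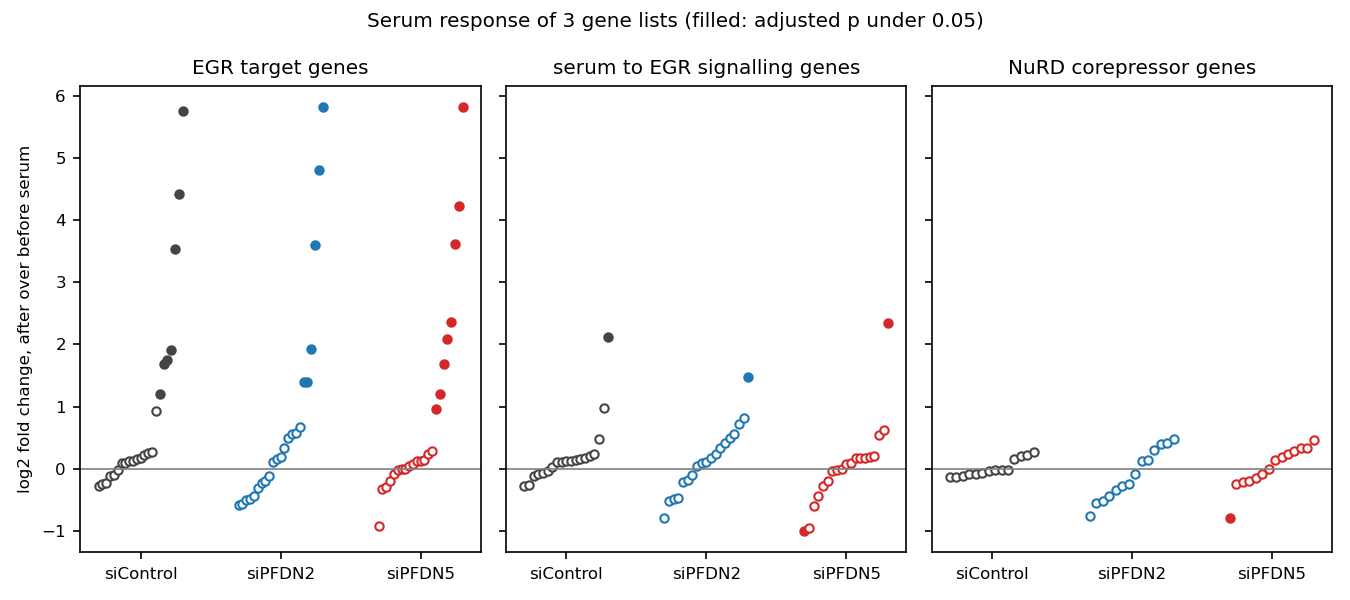
Serum response (log2 fold change, after over before serum) of the tested genes of 3 lists under each siRNA, sorted by value, filled where the adjusted p was under 0.05 by edgeR. The EGR target genes hold a tail that reaches 5.74 for THBS1 in siControl, and in the other 2 lists SRF is the 1 gene that rose.

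Of 19 genes that carry the serum signal to EGR promoters (MAP kinases, RAS and RAF proteins, RSK kinases, CREB1, SRF and its partners), 1 rose in each serum response, or 5.26% of the list where 2.47%, 2.06% and 5.72% of all genes rose. It was SRF, which went from 30.9 and 28.3 to 124 and 135 CPM in siControl, from 33.0 and 54.1 to 119 and 125 CPM under siPFDN2, and from 25.2 and 27.6 to 128 and 140 CPM in the siPFDN5 libraries. The log2 serum response of SRF was 2.13 (SE 0.21), 1.48 (SE 0.20) and 2.35 (SE 0.21), with adjusted p of 0.000178, 0.00231 and 9.64e-05 (edgeR). MRTFB, an actin-regulated partner of SRF, fell in the libraries labelled siPFDN5 (-1.001, SE 0.19, adjusted p = 0.0117, edgeR) and was at 0.13 (SE 0.19) in siControl. The other 17 genes passed in no serum response. MRTFB was named after its value was seen, and 1 of 19 is near the 6.48% of all genes that fell there.

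Of 14 subunits of NuRD, the chromatin complex that NAB proteins recruit, none passed in siControl or under siPFDN2 by edgeR. An unadjusted p under 0.05 was reached by 0 and 5 of them, and by 3449 and 7804 of all 27915 genes. In the libraries labelled siPFDN5, 1 fell after serum. That is 7.14% of the list, near the 6.48% of all genes that fell. This was GATAD2B (-0.79, SE 0.20, adjusted p = 0.0284), named after its value was seen. MBD2, the methyl-CpG binding subunit, had the smallest p of the list in siControl, at 43.3 and 44.4 CPM before serum and 56.6 and 49.2 CPM after it (0.27, SE 0.18, adjusted p = 0.653).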

How the data were processed

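The 12 libraries were assigned to 6 groups from their titles. The authors deposited fragment counts in 2 tables, 1 for gene bodies and 1 for exons. Per the file headers, featureCounts made both from Ensembl release 87, read no strand, and gave a fragment to every gene it touched. The authors also deposited estimated counts per transcript for each sample. The submitters' processing notes name HISAT2, featureCounts 1.5.2, kallisto 0.43 and GRCh38.p7. A further 6 count columns matched no label and were not used. Such processing cannot separate overlapping genes on opposite strands.

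Gene-body counts were filtered by filterByExpr, scaled by TMM and fitted with edgeR 4.0.16 in R 4.3.3, with 1 mean for each of 6 groups (glmQLFit with robust estimation). Tests were two-sided quasi-likelihood tests, adjusted by Benjamini-Hochberg over 27915 genes, and a gene was called at an adjusted p under 0.05. CPM is relative to the TMM-scaled total, except for STAT6, where the exon total was not scaled. The prior count on the log2 scale was 2. In simulated counts for the serum response in siControl (27078 genes), 100% of 4-fold changes were recovered, 46% of 2-fold increases and 64% of 2-fold decreases. The changed genes all lay above a minimum mean level, every gene had the same spread and no library stood apart. These shares therefore need not hold for the members, least of all for EGR4. Names and positions came from GENCODE release 29 (57447 genes matched) and older symbols from RefSeq.

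Alternatives were exon counts, summed and rounded transcript estimates, other scalings (DESeq2 size factors, upper quartile, library size), filters, prior counts, DESeq2 1.42.0, removal of each library's GC trend (lowess), a replicate block, fits of the compared libraries alone and leaving out each library. A group left with 1 library was assumed to vary like the others. The use of exon counts with the GC trend removed, without siPFDN2 before serum replicate 2, or for the compared libraries alone was chosen after seeing the data.

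The named genes are the 6 members, PFDN2 and PFDN5, genes overlapping a member, the 3 genes with the highest r with each member, and from each list up to 4 genes with the largest called change in siControl, or that with the smallest p. A gene that this rule names is not reported here. The members and lists were chosen with earlier results of these data known.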

Additional observations from a re-analysis of the deposited data

Results flagged for a closer look

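The level of NAB1 outside exons moved in opposite directions after serum, with no overlap between the libraries before and after. It was 1.53 times its start in siControl and 1.52 times under siPFDN2, but 0.459 times in the libraries labelled siPFDN5. The siControl value rests mostly on replicate 1, at 9.11 CPM after serum against 4.92 CPM in replicate 2, from 4.61 and 4.55 CPM before serum. NAB2 outside exons was 1.85 times its start in siControl and 0.490 times in the libraries labelled siPFDN5. These differences were not tested. The median share of counts outside exons over 16023 genes was 8.25% and 8.36% in those libraries and 16.8% and 15% in siPFDN5 before serum. It was highest, at 18.7%, in siControl after serum replicate 1. Its part in the NAB values was not tested, nor was that of fragments from AC006460.1, which overlaps NAB1.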

How the results depend on the processing

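The serum responses of EGR2 and EGR3 were called with the same sign in 29 of 29 alternatives under each siRNA, while most comparisons between siRNAs moved across the threshold. The causes were not tested. Member counts below, and DESeq2's above, are given without the share of all genes called in the same fit. They alone therefore do not set the members apart. With only the compared libraries over gene bodies, that share was 19.5% for siPFDN5 against siControl before serum. It was 22.7% for siPFDN5 against siPFDN2 after serum. All values below are from edgeR except those named as DESeq2's, and the setting that requires at least 10 counts in every library gave no value for EGR4. For siPFDN5 against siControl before serum EGR4 had a value in 26 of 29 alternatives.

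Members called under the serum response in siPFDN2 numbered 4, and 2 when only the compared libraries were fitted, over gene bodies or exons. For siPFDN5 against siControl before serum they numbered 0, but 3 with no filter and by DESeq2. They numbered 2 with the GC trend removed (gene bodies, exons, or with the replicate block), with only the compared libraries (either count), and over exons without siPFDN2 before serum replicate 2. For siPFDN5 against siPFDN2 before serum they numbered 2, but 1 over exons, from transcript estimates, with upper-quartile scaling, with at least 10 counts, with the replicate block, and over exons without that library. They numbered 0 by library size only and with only the compared libraries, and 4 over exons with the GC trend removed.

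After serum, siPFDN2 against siControl had 0 members called, and 1 over exons without that library or with only the compared libraries. For siPFDN5 against siControl it was 0, but 1 with no filter, with the block and GC trend removed, with only the compared libraries (either count) and over exons without that library, and 2 with the GC trend removed (either count). For siPFDN5 against siPFDN2 it was 0, but 2 with only the compared libraries (either count) and over exons without that library. The difference of serum responses from siControl had 0 members under siPFDN5, but 3 with no filter, by DESeq2 and with the GC trend removed. It had 2 with only the compared libraries (either count), over exons with the GC trend removed and over exons without that library. The difference between siPFDN5 and siPFDN2 had 0, and 2 with no filter and by DESeq2.

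Leaving out each library in turn gave 3 to 4, 3 to 5 and 3 to 4 members for the serum responses in siControl, siPFDN2 and siPFDN5. Before serum it gave 0 to 3 for siPFDN2 against siControl, 0 to 2 for siPFDN5 against siControl and 0 to 4 for siPFDN5 against siPFDN2. After serum these were 0 to 1, 0 to 2 and 0 to 2. For the differences of serum responses they were 0 to 2 (siPFDN2 from siControl), 0 to 3 (siPFDN5 from siControl) and 0 to 4 (siPFDN5 from siPFDN2). Over all genes, the serum response in siControl had 800 called genes (275 to 3137 over all alternatives), that in siPFDN2 had 910 (24 to 14264) and that in siPFDN5 had 3407 (251 to 13741). The comparisons between siRNAs ran from 0 to 14051 called genes, so background percentages move with the setting.

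Signs changed only for values not called with all libraries. NAB2 in siPFDN5 against siPFDN2 before serum was called both ways, at -0.329 without siPFDN2 before serum replicate 1 and at 0.445 over exons with the GC trend removed. With library size only, NAB2 was at -0.0885 for the serum response in siPFDN2 and at -0.0555 for siPFDN2 against siControl after serum, and NAB1 was at -0.0253 for the serum response in siPFDN5 and at -0.0315 for its difference from siControl, which was -0.0023 with at least 10 counts and -0.0020 over exons with the GC trend removed. EGR1 in siPFDN2 against siControl before serum was -0.0135 from transcript estimates, -0.21 with the GC trend removed, -0.0070 with the replicate block, -0.22 with both, -0.224 over exons with the GC trend removed and -0.498 over exons without that library. In the same comparison EGR2 was 0.0048 with no filter, NAB1 was 0.0338 over exons with the GC trend removed, and NAB2 was -0.146, -0.1446, -0.149 and -0.0376 in the GC, block and GC, exon GC and exon without that library settings.

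In those 4 settings, in the same order, siPFDN5 against siPFDN2 before serum gave 0.512, 0.516, 0.5175 and 0.504 for EGR4 and 0.428, 0.427, 0.445 and 0.221 for NAB2. The difference of serum responses between siPFDN2 and siControl gave 0.254, 0.253, 0.244 and 0.0796 for NAB2, and 0.184 for EGR1 in the last. That between siPFDN5 and siPFDN2 gave -0.2046, -0.2085, -0.221 and -0.193 for EGR4 and, in the first 3, -0.0552, -0.0543 and -0.0944 for NAB2. EGR3 in siPFDN5 against siControl after serum was 0.0079 with DESeq2 size factors and by DESeq2.

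Leaving out each library in turn, where a sign turned, gave -0.10 to 0.184 for NAB1 in the serum response in siControl, -0.0961 to 0.40 for NAB2 in that in siPFDN2 and -0.0664 to 0.60 for EGR1 in that labelled siPFDN5. For siPFDN2 against siControl it gave -0.48 to 0.40 for EGR1, -0.121 to 0.0208 for EGR2 and -0.0292 to 0.47 for NAB2 before serum, including -0.28 for EGR1. After serum it gave -0.52 to 0.137 for EGR1, -0.275 to 0.0584 for EGR4 and -0.104 to 0.323 for NAB2. For siPFDN5 against siPFDN2 before serum it gave -0.58 to 0.454 for EGR4 and -0.329 to 0.168 for NAB2, and for siPFDN5 against siControl after serum -0.132 to 0.133 for EGR3. For the differences of serum responses it gave -0.666 to 0.211 for EGR1 and -0.403 to 0.094 for NAB2 (siPFDN2 from siControl), -0.048 to 0.245 for NAB1 (siPFDN5 from siControl) and -0.0854 to 0.951 for EGR4 (siPFDN5 from siPFDN2).

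Same-numbered replicates did not deviate together in every pair of groups: the correlation of replicate differences ran from -0.322 to 0.592 over pairs of groups, so the numbers were not used as pairs. With the replicate block, members called were 4, 4 and 4 for the serum responses, 0 and 0 for siPFDN2 and siPFDN5 against siControl before serum, 1 in place of 2 for siPFDN5 against siPFDN2 before serum, and 0 in each other comparison. Depth limits EGR4 most, with 7 to 25 counts per library before serum.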
